A study of Homo sapiens with 4 samples.

Results

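The HOX cluster genes are the 39 genes of the HOXA, HOXB, HOXC and HOXD clusters, chosen by their symbols alone from the 58229 genes of the table. They comprise 11 HOXA, 10 HOXB, 9 HOXC and 9 HOXD genes, and each matched a single row. Their RNA was measured in CD31+ cells obtained on day 8 of hematopoietic differentiation from H1 cells, a line of human embryonic stem cells. CD31 is the adhesion protein encoded by PECAM1 and marks the endothelium and part of the blood lineage. The Control group (2 libraries) came from H1 cells without HAND1 overexpression and the HAND1_OE group (2 libraries) from H1 cells that overexpressed HAND1, a basic helix-loop-helix transcription factor of mesoderm and heart. Both groups had first been treated with activinA and BMP4 and then with VEGF and bFGF. A scheme of the study shows doxycycline being added before harvest; whether Control cells also received it, and whether the line was a single clone, is not stated in the sources used here. Nor do the labels say whether the 2 libraries of a group came from separate cultures, so p-values measure only the spread between these libraries, which may be technical.

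HOX genes encode homeodomain transcription factors that give cells their position along the body axis. Each is named for its cluster (A to D) and its paralog number, which follows the order of the genes along the chromosome: low numbers act and are switched on towards the head and early, and high numbers towards the tail and late. HOX proteins bind DNA with TALE homeodomain cofactors such as PBX and MEIS, retinoic acid and CDX factors switch the clusters on, the MLL complex keeps them active, and Polycomb proteins keep them silent. In blood formation HOXB4 and the middle HOXA genes, HOXA9 above all, are known for their part in stem and progenitor cells.

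HAND1 itself had 12.1 and 14.3 FPKM in Control against 520 and 517 FPKM in HAND1_OE, a difference of 5.20 (SE 0.152) on the log2(FPKM + 1) scale with a limma adjusted p = 0.00145. FPKM divides fragments by transcript length and library depth, so levels of different genes are per length. PECAM1, the gene of the sorted protein, had 95.5 and 141 FPKM in Control and 92.0 and 160 FPKM in HAND1_OE, and the groups overlapped. CDH5, the endothelial cadherin, lay between 222 and 280 FPKM in the 4 libraries, while PTPRC, the pan-leukocyte CD45, was at most 0.0227 FPKM. Markers are said to rise or fall at a limma adjusted p under 0.05, as 2.04% and 2.11% of all genes tested did. Of 20 blood markers 19 could be tested and 18 fell. Their summed level was 1124 to 1527 FPKM in Control and 77.2 to 91.2 FPKM in HAND1_OE, and PTPRC was the member under 0.1 FPKM throughout. Of 18 endothelial markers 1 rose (VWF) and 2 fell (CLDN5 and SOX18), with sums of 3910 to 4538 and 3823 to 4041 FPKM. Of 14 fibroblast and stroma markers 10 were tested and 4 rose (PDGFRB, POSTN, LUM and FBN1). Called or not, 8 of the 10 were higher in HAND1_OE. The 2 lower ones were COL1A1 and COL1A2 (154 and 141 FPKM in Control against 68.6 and 101 FPKM). The sums were 757 to 835 FPKM in Control and 1164 to 1185 FPKM in HAND1_OE. High genes weigh most in them, such as THY1 (378 and 383 against 553 and 628 FPKM) and COL3A1 (160 and 97.9 against 325 and 241 FPKM), which were not called. FAP and DPT were under 0.1 FPKM in every library. In such bulk samples fewer cells of a type and less RNA per cell cannot be told apart, and the part of these markers in the HOX values below was not tested.

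HOX expression in the CD31+ cells was almost wholly that of the middle of the HOXB cluster. HOXB genes gave 99.2% and 99.4% of the summed HOX FPKM in the Control libraries and 98.5% and 98.1% in the HAND1_OE libraries. Only HOXB2 to HOXB9, which lie side by side on chromosome 17, reached 1 FPKM in any library, and all 8 did so in all 4. Both ends of the same cluster were nearly silent. HOXB1, the hindbrain gene at one end, had 0.0260 and 0.0532 FPKM in Control against 0 and 0.0504 FPKM in HAND1_OE. HOXB13, the posterior gene at the other end, had 0.127 and 0.102 FPKM in Control against 0.204 and 0.206 FPKM in HAND1_OE. The other 3 clusters together held 29 genes, none above 0.347 FPKM (HOXD1 in Control replicate 1).

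**Figure D1:**
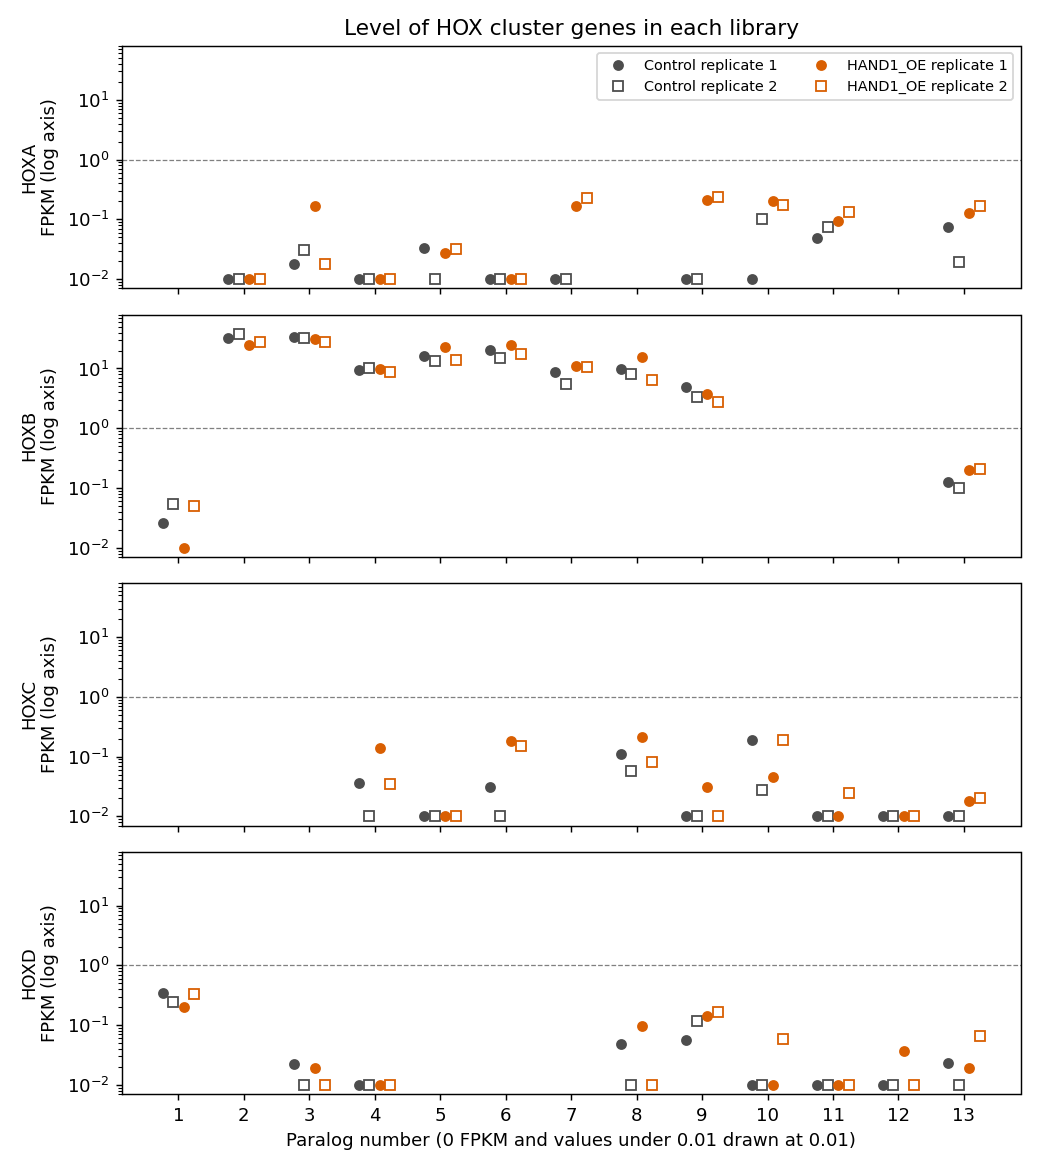
FPKM on a log axis of the HOX cluster genes in the 4 libraries, by cluster (panels A to D) and paralog number; grey marks are Control, orange marks HAND1_OE, filled circles replicate 1 and open squares replicate 2, paralog numbers without marks are genes that the cluster lacks or that are not shown, and the dashed line is 1 FPKM. The 8 genes HOXB2 to HOXB9 lie above the line in every library and the other plotted genes lie under it.

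By group mean the HOXB levels were highest at HOXB2 and HOXB3 and lowest at HOXB9, and did not decrease evenly between them: HOXB6 was above HOXB5, and HOXB5 above HOXB4, in all 4 libraries. HOXB2 and HOXB3 had 35.3 ± 4.07 and 32.9 ± 1.30 FPKM in Control (SD, n = 2), and their order changed between libraries. HOXB6 and HOXB5 followed at 17.6 ± 3.85 and 14.9 ± 2.01 FPKM, with overlapping values. HOXB4, HOXB8 and HOXB7 had 9.84 ± 0.409, 8.94 ± 1.41 and 7.12 ± 2.35 FPKM; HOXB8 overlapped with each of the others, whereas both HOXB4 values were above both HOXB7 values. In Control and HAND1_OE alike HOXB9 was the lowest in each library, at 4.09 ± 1.03 FPKM in Control. In HAND1_OE HOXB3 had 29.4 ± 1.82, HOXB2 26.2 ± 2.43 and HOXB9 3.26 ± 0.769 FPKM, and in HAND1_OE replicate 1 HOXB6 (25.1 FPKM) stood above HOXB2 (24.5 FPKM). The order changed further down too, since HOXB8 was the fifth gene in HAND1_OE replicate 1 and the seventh in HAND1_OE replicate 2.

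**Figure D2:**
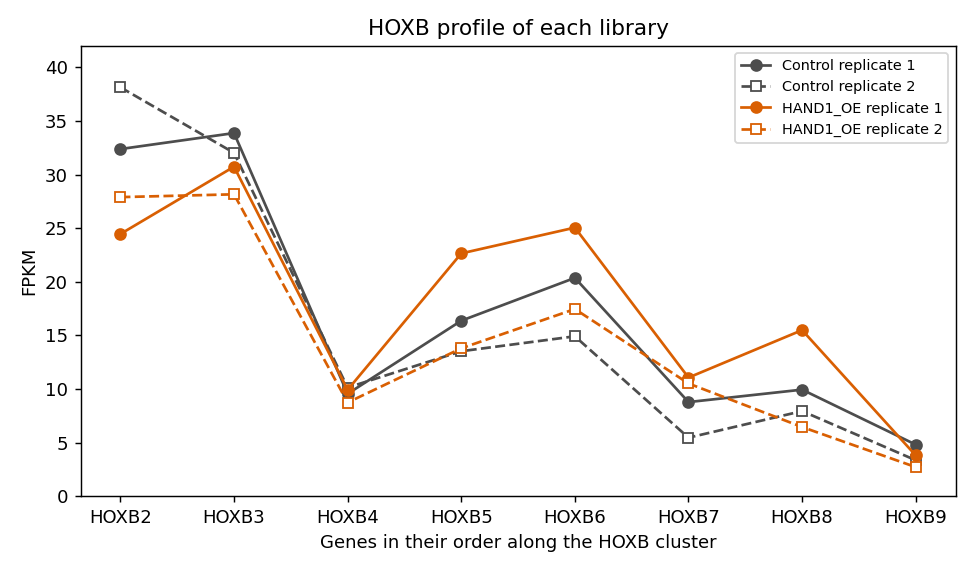
FPKM of HOXB2 to HOXB9 in their order along the cluster, with a line for each library (grey Control, orange HAND1_OE; solid line and circles replicate 1, dashed line and squares replicate 2). HOXB2 is lower in both HAND1_OE libraries (24.5 and 27.9) than in both Control libraries (32.4 and 38.1), HOXB7 is higher (10.5 and 11.1 against 5.46 and 8.78), and at HOXB3 and from HOXB5 to HOXB9 each replicate 1 line runs above the replicate 2 line of its group.

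The comparison of HAND1_OE with Control asked whether forced HAND1 changed this code, and no HOX gene passed the test. limma with Benjamini-Hochberg adjustment over the 14622 genes that reached 1 FPKM in 2 or more libraries called 608 genes (4.16%), of which 299 (2.04%) were higher and 309 (2.11%) lower in HAND1_OE. Of the 8 HOX genes tested 0 were called, and the smallest adjusted p was 0.276. At an unadjusted p under 0.05 there was 1 HOX gene (HOXB2), beside 17.4% of all genes tested. Of the 8 genes 4 had the higher mean in HAND1_OE and 4 the lower. The median difference was 0.047 on the log2(FPKM + 1) scale, against -0.078 over all genes tested, and the median size of the difference was 0.24 against 0.21. The median of the 8 genes changed sign with the libraries used, from -0.19 without HAND1_OE replicate 1 to 0.26 without HAND1_OE replicate 2. The summed HOXB level was 136 and 126 FPKM in Control and 143 and 116 FPKM in HAND1_OE, so the HAND1_OE libraries lay on either side of both Control libraries. A missed threshold does not show that the groups were alike. On the log2(FPKM + 1) scale the 95% interval of the difference lay within a 2-fold change in either direction for 6 of the 8 genes. The exceptions were HOXB7 and HOXB8. This scale understates folds of low genes: with a pseudocount of 0.1 the HOXB9 difference was -0.31 in place of -0.25. With 2 libraries a group, an exact permutation test cannot go below p = 0.333 for a single gene.

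**Figure D3:**
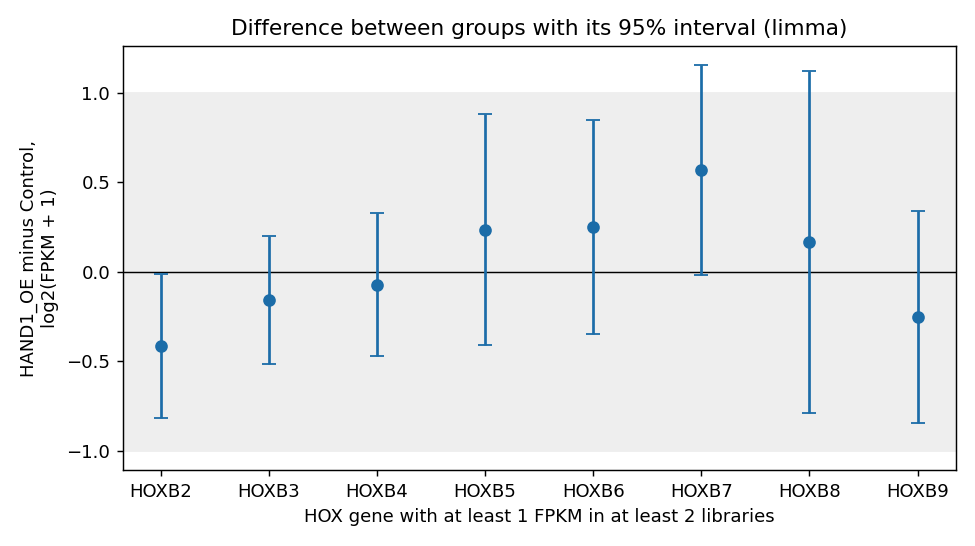
HAND1_OE minus Control on the log2(FPKM + 1) scale for the 8 tested HOX genes, in cluster order; points are the limma differences, bars their 95% intervals, and the grey band spans a 2-fold change either way. The interval of HOXB2 (-0.82 to -0.010) lies below 0, those of the other 7 genes include 0, and those of HOXB7 and HOXB8 reach beyond the band.

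Among the anterior paralogs, HOXB2, which patterns the hindbrain, had 32.4 and 38.1 FPKM in Control against 24.5 and 27.9 FPKM in HAND1_OE. Both HAND1_OE libraries lay below both Control libraries, and the difference was -0.41 (SE 0.162) on the log2(FPKM + 1) scale with a limma adjusted p = 0.276. HOXB3, a hindbrain and neck gene that is also read in blood progenitors, had 33.9 and 32.0 FPKM in Control and 30.7 and 28.2 FPKM in HAND1_OE. These groups were apart too, by -0.16 (SE 0.143, adjusted p = 0.678). With median-ratio scaling, which divides each library by a factor, the differences of HOXB2 and HOXB3 were -0.33 and -0.068. With HOXB1 the anterior HOXB genes summed to 66.3 and 70.2 FPKM in Control and to 55.2 and 56.1 FPKM in HAND1_OE, so that each HAND1_OE sum was below each Control sum. HOXB-AS1, an antisense RNA whose gene overlaps HOXB2 and HOXB3, had 8.20 and 7.26 FPKM in Control and 4.60 and 5.30 FPKM in HAND1_OE, a difference of -0.55 (SE 0.173, adjusted p = 0.181). It thus lay on the same side as HOXB2, and it missed the threshold as well.

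Among the central paralogs HOXB5 to HOXB8 had the higher mean in HAND1_OE and HOXB4 the lower. For HOXB4, HOXB5 and HOXB8 the direction changed in a fit that left out a library. HOXB4, known for its use to expand blood stem cells, had 9.55 and 10.1 FPKM in Control and 9.93 and 8.74 FPKM in HAND1_OE, a difference of -0.071 (SE 0.16) whose 95% interval ran from -0.47 to 0.33. HOXB5, a marker of long-term blood stem cells in the mouse, had 16.4 and 13.5 FPKM in Control and 22.6 and 13.8 FPKM in HAND1_OE. HOXB6, a gene of early mesoderm and blood precursors, had 20.4 and 14.9 FPKM in Control and 25.1 and 17.5 FPKM in HAND1_OE. Both were highest in HAND1_OE replicate 1, their groups overlapped, and their differences were 0.24 (SE 0.259) and 0.25 (SE 0.241) with adjusted p = 0.742 and 0.700. Over the fits that left out a library HOXB6 ranged from 0.0015 (without HAND1_OE replicate 1) to 0.50 (without HAND1_OE replicate 2), and it was 0.038 without Control replicate 2. HOXB7, which in other tissues is linked to growth of mesenchymal cells, had 8.78 and 5.46 FPKM in Control and 11.1 and 10.5 FPKM in HAND1_OE. It was the central gene whose groups did not overlap, with a difference of 0.57 (SE 0.235, 95% interval -0.017 to 1.15, limma adjusted p = 0.303). Without Control replicate 2 that difference was 0.27. HOXB8, a progenitor gene of myeloid cells, had 9.94 and 7.94 FPKM in Control and 15.5 and 6.46 FPKM in HAND1_OE. The highest and the lowest value were thus both in HAND1_OE, and the difference was 0.16 (SE 0.384, adjusted p = 0.892); without HAND1_OE replicate 1 it was -0.41, and that of HOXB5 was -0.10.

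Of the posterior paralogs only HOXB9 was tested, a gene of the thorax and of vessel growth in tumors. It had 4.81 and 3.36 FPKM in Control and 3.81 and 2.72 FPKM in HAND1_OE. The groups overlapped, with a difference of -0.25 (SE 0.239, adjusted p = 0.696), which was -0.044 when Control replicate 1 was left out and -0.46 when Control replicate 2 was. In all, 3 of the 8 tested HOX genes had groups that did not overlap (HOXB2, HOXB3 and HOXB7), beside 46.3% of all genes tested. Both figures are for FPKM without further scaling.

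Replicates also differed within each group. For 6 of the 8 genes (HOXB4 to HOXB9) the larger of the gaps between replicates exceeded the difference between the group means on the log2(FPKM + 1) scale. The widest gap was that of HOXB8 in HAND1_OE, at 1.15. A gap between single libraries spreads more than a difference of 2-library means. The same count over all genes was not made, so this count only describes the 8 genes. In both groups 6 of the 8 genes (HOXB3 and HOXB5 to HOXB9) were higher in replicate 1, and in both HOXB2 was higher in replicate 2. The labels do not say what replicates of the same number shared. The balance along the cluster showed both patterns: HOXB2 to HOXB4 made up 55.6% and 63.9% of the HOXB level in Control and 45.4% and 55.9% in HAND1_OE. The share was lower in HAND1_OE within each replicate number, but HAND1_OE replicate 2 lay at the level of Control replicate 1, so the groups overlapped.

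Levels of neighbouring HOXB genes are not separate counts. The gene HOXB3 (GRCh38, chr17:48548870-48604912, minus strand) spans HOXB4, HOXB5 and most of HOXB6 in the annotation. HOXB7 (chr17:48607227-48633572, minus strand) spans HOXB8 and HOXB9. HOXB-AS3, at 4.44 and 2.75 FPKM in Control and 3.99 and 2.16 FPKM in HAND1_OE, runs against HOXB3 to HOXB6 on the other strand. The use of strand is not stated in the sources used here, so reads shared by such genes may have been divided between them by an estimate. HOXB2 (chr17:48540894-48544989) overlaps HOXB-AS1 alone, by 1439 bases.

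The other 31 HOX genes were too low to be tested. Of these, 7 were listed at 0 in all 4 libraries (HOXA2, HOXA4, HOXA6, HOXC5, HOXC12, HOXD4 and HOXD11), 9 were above 0 in all, and the sum over the 31 genes was 1.30 and 0.871 FPKM in Control and 2.37 and 2.48 FPKM in HAND1_OE. Among the 24 that were above 0 anywhere, 20 had the higher group mean in HAND1_OE and 4 in Control. In 9 of them the lower HAND1_OE value exceeded the higher Control value, and in 0 the reverse held. Over all 11165 untested genes above 0 somewhere and under 0.5 FPKM throughout, 9.89% had the HAND1_OE libraries above in this way and 17.9% below. This range was set after the HOX values were seen. It takes in genes above 0 in a single library, whose groups cannot be apart. Of the 24 HOX genes 20 were above 0 in 2 or more libraries, so the shares are not like for like. The 9 genes were HOXA7, HOXA9, HOXA10, HOXA11, HOXA13, HOXB13, HOXC6, HOXC13 and HOXD9, named here because their groups were apart. Except for HOXA7 and HOXC6 they are posterior paralogs. However, 16 of the 39 HOX genes are posterior, and all of them but HOXB9 were among the untested genes. A large posterior share is thus already present in the low HOX genes.

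Among the low clusters HOXA, HOXC and HOXD, whose sums were not tested, the mean sums of the groups differed most in HOXA. Its 11 genes summed to 0.278 and 0.269 FPKM in Control and to 1.02 and 1.09 FPKM in HAND1_OE. HOXC summed to 0.371 and 0.0854 FPKM in Control and 0.631 and 0.502 FPKM in HAND1_OE, and HOXD to 0.497 and 0.362 against 0.518 and 0.628 FPKM. In each of these clusters both HAND1_OE sums were above both Control sums. In HOXC and HOXD, however, the nearest values of the groups lay closer together than the Control libraries did. Their group means were 0.228 in Control and 0.567 FPKM in HAND1_OE for HOXC, and 0.430 and 0.573 FPKM for HOXD. Within HOXA most of the difference lay in HOXA7, HOXA9, HOXA10, HOXA11 and HOXA13. HOXA7 (chr7:27153716-27157936, minus strand) was listed at 0 in Control throughout, and had 0.170 and 0.232 FPKM in HAND1_OE. HOXA9 (chr7:27162435-27175180, minus strand), a gene of blood stem cells and of leukemia, was likewise at 0 in Control, against 0.208 and 0.237 FPKM in HAND1_OE. HOXC13, a gene of hair and nail, was the other member at 0 in Control and above 0 throughout HAND1_OE, at 0.0178 and 0.0204 FPKM. These were 3 of the 24 low HOX genes above 0 anywhere. Over the 11165 low genes of the wider count 3.57% had this pattern, with the same limit on the comparison. HOXA10 (chr7:27170591-27180261, minus strand), whose gene overlaps HOXA9 in the annotation, had 0 and 0.102 FPKM in Control against 0.202 and 0.177 FPKM in HAND1_OE. HOXA11, a limb and kidney gene, had 0.0487 and 0.0747 FPKM in Control against 0.0949 and 0.133 FPKM, and HOXA13, the most posterior gene of the cluster, 0.0734 and 0.0195 against 0.127 and 0.165 FPKM.

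**Figure D4:**
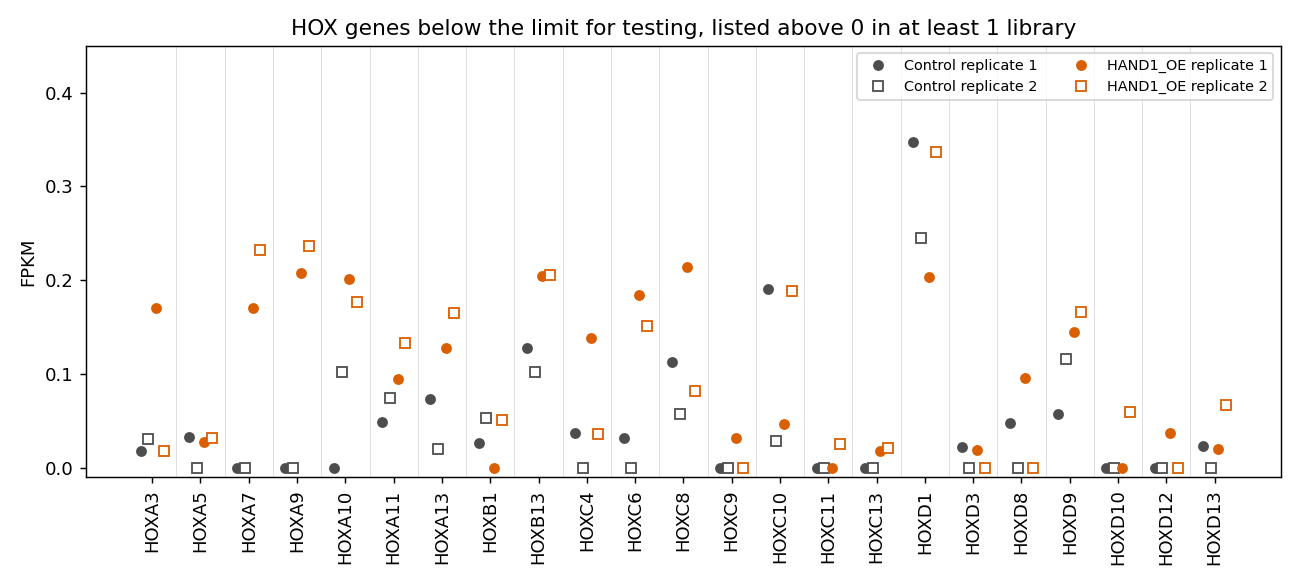
FPKM on a linear axis of untested HOX genes that were above 0 in at least 1 library, by cluster and paralog number (grey Control, orange HAND1_OE; circles replicate 1, squares replicate 2). HOXA7 and HOXA9 are at 0 in Control and between 0.170 and 0.237 in HAND1_OE, while HOXD1, the highest gene, shows no separation of the groups (0.246 to 0.347 against 0.203 to 0.336).

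How many fragments lie behind these levels could be read only in part. Values were scaled for relative depth (0.982 for Control replicate 2, 1.19 and 1.03 for HAND1_OE replicates 1 and 2, Control replicate 1 being the reference). Of the 20 low HOX genes above 0 in at least 2 libraries, 7 then stood at whole multiples of their smallest value, up to 5. The tolerance was 5% of that smallest value. In 4 of the 7 (HOXA5, HOXA9, HOXC13 and HOXD3) the values above 0 were merely equal, and HOXD9 stood at 1, 2, 3 and 3 times its smallest value. The other 13 genes did not meet this rule. Among them, HOXC6 missed it only through the limit of 5, reaching 7.03 times its smallest value. HOXC10 lay near 7, 1, 2 and 7 times its own. A gene listed at 0 may have been expressed below what this depth detects, and no fold is given against it. When every gene above 0 in any library was fitted, 29860 in all, limma called 0 genes, HOX or other, and 4 HOX genes had an unadjusted p under 0.05 (HOXA7, HOXA9, HOXB2 and HOXC6). In that fit HOXA9 differed by 0.29 (SE 0.032, adjusted p = 0.162), HOXA7 by 0.26 (adjusted p = 0.195) and HOXC6 by 0.20 (adjusted p = 0.223) on the log2(FPKM + 1) scale, and HAND1 itself had an adjusted p = 0.153.

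HAND1 binds, with partner E proteins, short sites of the E-box kind (CANNTG). The promoters of HOXA7 and HOXA9, neighbouring genes that were both at 0 in Control and above 0 in HAND1_OE, are shown for that reason, as given by RefSeq (GRCh38.p14, minus strand) at chr7:27156626-27156925 and chr7:27165488-27165787, 5′ to 3′ with CANNTG in capitals. They were chosen after the values were seen.
HOXA7: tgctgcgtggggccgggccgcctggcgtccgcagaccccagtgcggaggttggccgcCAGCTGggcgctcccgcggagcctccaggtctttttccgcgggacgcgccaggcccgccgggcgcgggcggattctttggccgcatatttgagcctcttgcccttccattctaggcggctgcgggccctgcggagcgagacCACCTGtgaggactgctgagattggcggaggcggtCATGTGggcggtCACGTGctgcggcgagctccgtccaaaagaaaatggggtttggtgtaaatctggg
HOXA9: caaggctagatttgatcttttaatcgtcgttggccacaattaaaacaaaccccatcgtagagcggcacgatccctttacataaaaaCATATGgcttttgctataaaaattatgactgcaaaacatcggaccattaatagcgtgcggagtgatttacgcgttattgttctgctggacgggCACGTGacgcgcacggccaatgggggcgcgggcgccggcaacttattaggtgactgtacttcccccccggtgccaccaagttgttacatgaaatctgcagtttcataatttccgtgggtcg
HOXA7 held 4 such sites and HOXA9 2; the pattern CANNTG is its own reverse complement, so 1 search covers both strands. Promoters were at hand for only 20 of the 39 HOX genes. HOXB1 was the only HOXB gene among them, so none of the tested HOX genes was covered. Some genes had several promoters, HOXA3 above all, and HOXC4 and HOXC5 shared an interval. Of these 27 HOX promoters, 74.1% held at least 1 CANNTG, against 68.7% of all 35116 promoters of the same length. A site for PBX with a HOX partner, searched as TGATNNAT on both strands, was in 11.1% of the HOX promoters and in 7.40% of all. The HOX promoters held a median of 22 CpG, against 14 over all, at a similar GC content (58.0% and 58.7%). A match is a description of the letters only.

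By paralog number over all clusters, the sums followed the HOXB gene of that number for paralogs 2 to 9. Paralog 2 summed to 32.4 and 38.1 FPKM in Control and 24.5 and 27.9 FPKM in HAND1_OE, and paralog 7 to 8.78 and 5.46 against 11.2 and 10.7 FPKM. For paralogs 10 to 13, where HOXB has HOXB13 alone, each sum stayed under 0.5 FPKM. For paralog 13 the groups were apart, with 0.224 and 0.121 FPKM in Control and 0.369 and 0.458 FPKM in HAND1_OE, as for paralog 10, with 0.190 and 0.130 against 0.248 and 0.424 FPKM, and paralog 11, with 0.0487 and 0.0747 against 0.0949 and 0.158 FPKM. These sums were not tested.

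Of the 11 TALE cofactor genes of the HOX proteins 10 were tested and 0 called, beside 4.16% of all genes. At an unadjusted p under 0.05 there were 2 (MEIS1 and MEIS3), beside 17.4% of all genes, and the median difference was -0.12. MEIS1, the partner of HOXA9 and of PBX in blood progenitors, came nearest, with 30.0 and 32.5 FPKM in Control and 19.7 and 20.6 FPKM in HAND1_OE, a difference of -0.61 (SE 0.143, adjusted p = 0.092). PBX2, the most abundant, lay between 90.4 and 119 FPKM in the 4 libraries with overlapping groups.

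Of 28 genes that switch the clusters on, keep them active or make, read or break down retinoic acid, 19 were tested, 1 rose and 2 fell, beside 2.04% and 2.11% of all genes tested. Their median was -0.19. ALDH1A3, which makes retinoic acid, rose from 0.469 and 1.92 FPKM in Control to 19.2 and 27.8 FPKM in HAND1_OE, by 3.54 (SE 0.369, limma adjusted p = 0.011). ALDH1A1, another enzyme that makes retinoic acid, fell from 21.5 and 26.3 FPKM to 3.66 and 7.58 FPKM, by 1.97 (SE 0.312, adjusted p = 0.034). ASH2L, a core subunit of the MLL histone methyltransferase complexes, fell from 48.0 and 45.7 FPKM to 22.3 and 23.7 FPKM (-0.995, SE 0.14, adjusted p = 0.026). ALDH1A2, the other enzyme of this family in the list, had 1.74 and 0.908 FPKM in Control and 1.27 and 0.598 FPKM in HAND1_OE and did not pass the test (-0.26, SE 0.296, adjusted p = 0.748). The CDX genes were low: CDX2, at 0.280 and 1.21 FPKM in Control and 2.12 and 0.788 FPKM in HAND1_OE, was the one tested.

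The list of 20 Polycomb and repressor genes, all tested, also held KDM6A and KDM6B, demethylases that work against Polycomb. In HAND1_OE 16 of the 20 had the lower mean, KDM6A (-0.51) and KDM6B (-0.39) among them. The median of the 20 was -0.31, beside -0.078 over all genes tested. The threshold was passed by 1, a share near the 4.16% of all genes. This was ZBTB16, a zinc finger repressor of HOX genes in limbs and of blood cells, which fell from 2.81 and 4.01 FPKM to 0.685 and 0.815 FPKM (-1.32, SE 0.226, adjusted p = 0.041). CBX8 and CBX2, chromodomain readers in the complex that silences HOX clusters, came next, at -0.83 (SE 0.182, adjusted p = 0.078) and -0.64 (SE 0.145, adjusted p = 0.083). PHC2, a subunit of the same complex, lay on the other side, at 0.46 (SE 0.141, adjusted p = 0.176). EZH2, the methyltransferase, had 13.1 and 12.0 FPKM in Control and 9.48 and 10.4 FPKM in HAND1_OE (-0.31, SE 0.156, adjusted p = 0.396).

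Around the clusters, 24 of 27 flanking genes in the table were tested. Of these 1 was called, a share near the 4.16% of all genes tested. NFE2, a red cell and platelet factor beside HOXC and so a blood gene, fell from 33.3 and 40.2 FPKM to 2.42 and 1.26 FPKM (-3.76, SE 0.248, adjusted p = 0.007). The median of the 24 was 0.062. Of 24 noncoding genes of the clusters in the table, 3 could be tested (HOXB-AS1, HOXB-AS2 and HOXB-AS3), and 0 were called, beside 4.16% of all genes tested. HAGLR and HAGLROS, RNAs of the HOXD cluster, were below the limit for testing, and both were lower in HAND1_OE, at 0.211 and 0.449 against 0.836 and 1.26 FPKM for HAGLR and at 0.454 and 0.238 against 0.981 and 0.913 FPKM for HAGLROS. The 6 microRNA genes of the clusters were listed at 0 in all libraries, which does not show that the microRNAs were absent.

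**Figure D5:**
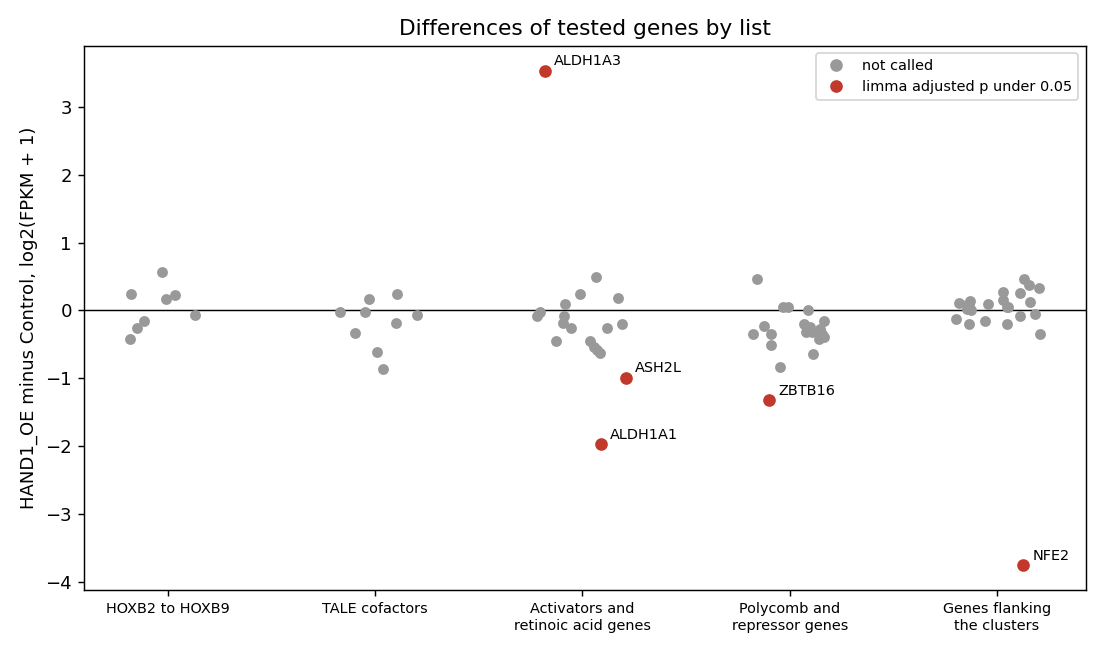
HAND1_OE minus Control on the log2(FPKM + 1) scale for tested genes of 5 lists, with a point for each gene, spread sideways for legibility; red points with names have a limma adjusted p under 0.05. HOXB2 to HOXB9 lie between -0.41 and 0.57 with 0 called, while ALDH1A3 is at 3.54 and ALDH1A1, ASH2L, ZBTB16 and NFE2 are between -0.995 and -3.76.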

How the data were processed

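The authors deposited 1 table for the 4 libraries without naming its unit. As the authors plot FPKM (fragments scaled by transcript length and depth) for the CD31+ cells, the values were read as FPKM. Per the labels, total RNA was prepared with a TruSeq kit and the submitters' processing notes name BWA, Bowtie, RSEM and hg19, without roles. The row coordinates are, however, those of GRCh38: 38 of 39 HOX genes had the coordinates of GENCODE release 29. Positions are counted from 1. Of 58365 rows, 45 Y copies of pseudoautosomal genes and 91 repeats of a gene ID were left out.

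HAND1_OE was compared with Control on log2(FPKM + 1) in limma 3.58.1 (R 4.3.3, mean-variance trend, two-sided, Benjamini-Hochberg over 14622 genes reaching 1 FPKM in 2 or more libraries, called at 0.05). FPKM hold no counts, so depth is known only as a ratio and counting intervals cannot be given. A fold on this scale understates changes of low genes. The code was tested on simulated data. HOX genes were named in full where a group mean was at least 1 FPKM, and from other lists the called members. Those named beyond this rule (low HOX genes, MEIS1, PBX2, CDX2, ALDH1A2, PHC2, CBX2, CBX8, EZH2, KDM6A, KDM6B, HAGLR, HAGLROS, MEIS3, HOXB-AS1, HOXB-AS2 and HOXB-AS3) were picked with their values in view. Some single genes are not reported here. The members and all lists were chosen with earlier results of these data known. Alternatives were another pseudocount, filter or scaling, no trend, a replicate block and each library left out. Of 8, 3 and 6 tested cardiac, neural and pluripotency markers, 0, 1 and 0 were called higher and 0 lower. The shares over all genes tested were 2.04% and 2.11%.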

Additional observations from a re-analysis of the deposited data

How the results depend on the processing

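The count of HOX genes called stayed at 0 in every alternative. Of the 88 single-gene values under alternatives 83 kept direction and side of the threshold. HOXB4 turned to 0.0077 with quantile normalization and 0.012 with median-ratio scaling. Over the fits that left out a library, HOXB4 ranged from -0.15 to 0.012 (positive without HAND1_OE replicate 2), HOXB5 from -0.10 to 0.57 and HOXB8 from -0.41 to 0.74 (both negative without HAND1_OE replicate 1). Median-ratio scaling moved the median of all genes from -0.078 to 0.0014, and the anterior median from -0.29 to -0.20. The median of the central paralogs (0.24) ranged from -0.10 to 0.57 over the fits that left out a library. With all 29860 genes above 0, HAND1 (5.20) had an adjusted p = 0.153 and limma called 0 genes, and the cause was not tested; 4 HOX genes had an unadjusted p under 0.05 there (HOXA7, HOXA9, HOXB2 and HOXC6). Calls over all genes were 299 higher and 309 lower, and between 134 and 266 higher and between 137 and 309 lower when a library was left out. With a replicate block they were 597 and 712, and the smallest adjusted p of a HOX gene was 0.0611. Deviations of same-numbered libraries correlated at 0.38 across 14622 genes, over only 2 pairs, and the labels name nothing that they shared. FPKM limits what can be read below about 0.5 FPKM.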
